A study of Homo sapiens with 4 samples.

Results

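The genes described here are 10 members of the Hippo pathway, chosen by name from the deposited table: the coactivator genes YAP1 and WWTR1 (which encodes TAZ), the transcription factor genes TEAD1, TEAD3 and TEAD4, the kinase gene LATS2, and the target genes CYR61, CTGF, ANKRD1 and AMOTL2. All 10 had a row among the 17825 listed genes, and all 10 passed the filter on low counts that left 14207 genes for testing. RNA was sequenced from KYSE150, an established line of human esophageal squamous carcinoma cells grown in RPMI1640 with serum. The labels name esophageal squamous cells, whereas the series describes its design as retinal profiles. The siCEBPG group had 2 libraries from cells transfected with siRNA number 1 against CEBPG, which encodes a transcription factor of the C/EBP family, and the Control group had 2 libraries from cells labelled as a negative control. Only 1 siRNA was used in the libraries analysed here, in 1 cell line. The labels do not tie the libraries to separate cultures, so each p-value reflects the spread between libraries alone, and that spread may be technical.

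In the Hippo pathway the kinases encoded by STK3 and STK4 activate the LATS kinases, which phosphorylate YAP and TAZ and so keep them out of the nucleus. When they are not phosphorylated, YAP and TAZ enter the nucleus and bind TEAD proteins, which carry the DNA-binding domain that the coactivators lack. Genes switched on this way include CYR61 and CTGF, which encode secreted matricellular proteins, and LATS2 and AMOTL2, whose products act back on YAP. The pathway is known for its part in growth, cell contact sensing and squamous carcinoma.

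Libraries held 15432762 to 15536501 counts. CEBPG, the siRNA target, had 214 and 204 counts in siCEBPG libraries, against 792 and 751 in Control libraries (edgeR log2 fold change -1.98 with SE 0.077 and adjusted p = 1.82e-11). All 11 squamous epithelial markers were listed, with a summed level of 2593 and 2632 CPM (counts scaled to the library size with TMM factors) in siCEBPG libraries and 2477 and 2457 CPM in Control libraries. Single markers went both ways within that sum, as shown by PERP and SFN, named after their values were seen. The junction gene PERP was at 188 and 190 CPM in siCEBPG libraries and 65.9 and 64.6 CPM in Control libraries. SFN was at 212 and 216 CPM in siCEBPG libraries and 382 and 411 CPM in Control libraries. Of markers of other cells, 4 of 9 for fibroblasts and muscle were listed (13.6 and 12.1 CPM in siCEBPG, 15.9 and 13.8 CPM in Control), 2 of 5 for endothelium (13.2 and 13.1 CPM in siCEBPG, 7.73 and 7.75 CPM in Control) and 2 of 5 for immune cells (1.19 and 1.13 CPM in siCEBPG, 0.600 and 0.668 CPM in Control). The part of these markers in the values below was not tested. In a bulk library, fewer cells with a transcript and less of it per cell cannot be told apart.

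Of the 10 genes, 7 were lower in siCEBPG cells, 1 was higher and 2 did not pass the test. Both coactivator genes, TEAD1 and all 4 of CYR61, CTGF, ANKRD1 and AMOTL2 fell, whereas TEAD3 and TEAD4 did not pass the threshold and LATS2 was higher. Over all genes tested, 28.8% were called lower and 25.5% higher at an edgeR adjusted p under 0.05. A called fall of at least 1 on the log2 scale was found for 5 of the 10 genes (WWTR1, ANKRD1, TEAD1, CYR61 and AMOTL2), against 2.86% of all genes tested. The median log2 fold change was -0.90 for the 10 genes and 0.0048 for all genes tested. Ordered over all 14207 genes tested, 242 had a lower log2 fold change than ANKRD1, 309 than TEAD1, 389 than CYR61, 406 than AMOTL2, 716 than YAP1 and 1057 than CTGF, while 5636 lay below TEAD4, 8278 below TEAD3 and 10162 below LATS2. The members were chosen with earlier results of these data known, so these shares are descriptions. With total counts in place of TMM factors, 61.6% of all calls were higher instead of 46.9%, the median of all genes shifted to 0.10, and the 7 falls were still called.

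**Figure D1:**
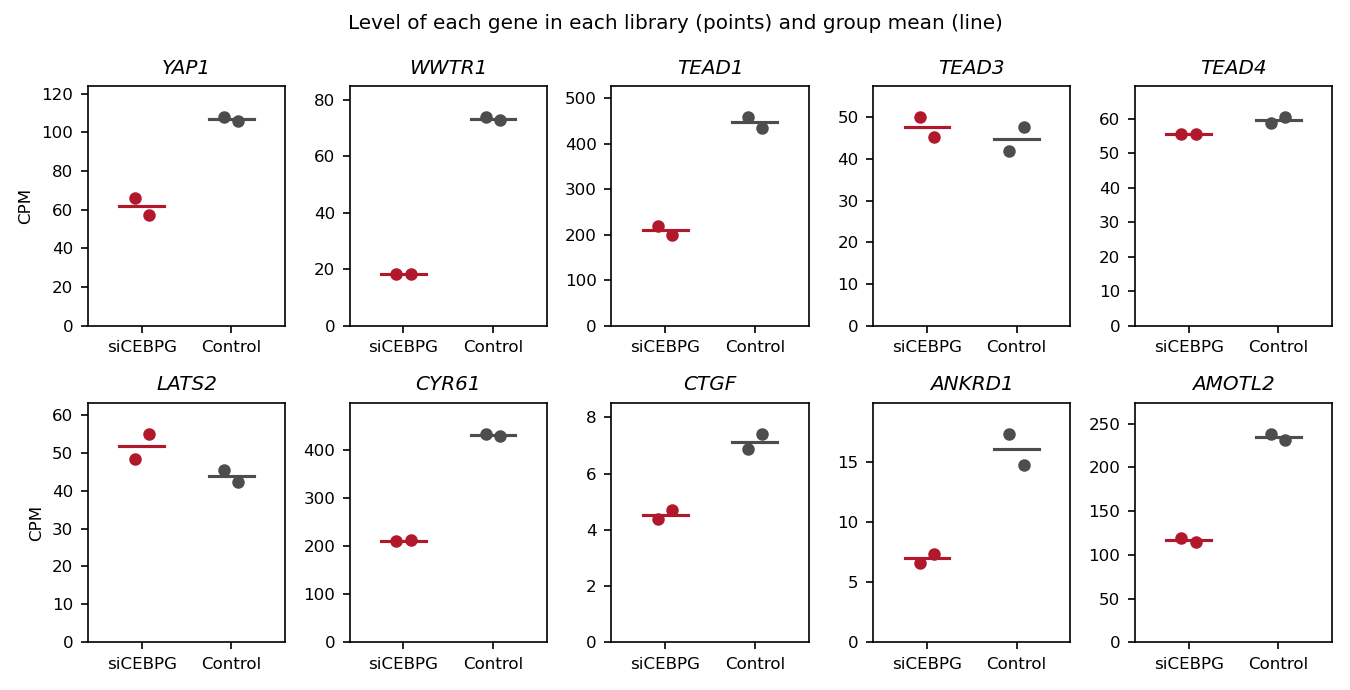
Level of each of the 10 genes in CPM (vertical axes, each from 0) in the siCEBPG and Control libraries; points are libraries and lines are means of 2. Levels of WWTR1 are 18.4 and 18.3 CPM in siCEBPG libraries, against 73.8 and 72.9 CPM in Control libraries, while the TEAD3 points of the groups overlap.

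WWTR1 had the deepest fall of the 10. Its level was 18.4 and 18.3 CPM in siCEBPG libraries, against 73.8 and 72.9 CPM in Control libraries. The groups were far apart and the libraries within each almost equal. WWTR1 was 3.99-fold lower (edgeR log2 fold change -2.00 with SE 0.064 and adjusted p = 2.76e-12), and only 33 of the 14207 genes tested had a lower log2 fold change. WWTR1 lies on chromosome 3 at 149517235 to 149736714 on the minus strand (GRCh38), and an antisense gene, WWTR1-AS1, overlaps it with 11 to 15 counts per library. The use of strand in counting is not stated, so reads of WWTR1 and WWTR1-AS1 cannot be told apart.

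YAP1, which encodes the other coactivator, was at 66.0 and 57.5 CPM in siCEBPG libraries and at 108 and 106 CPM in Control libraries. The siCEBPG libraries were both below the Control libraries, and differed more between themselves than the Control pair did. The log2 fold change was -0.79 (edgeR, SE 0.059 and adjusted p = 2.93e-08), a fall of 1.73-fold. The deposited RPKM (reads scaled to gene length and library size, which allows levels of different genes to be compared) gave a WWTR1 to YAP1 ratio of 0.208 and 0.239 in siCEBPG libraries, against 0.512 and 0.516 in Control libraries. WWTR1 was the less abundant of the pair in all 4 libraries, and its ratio to YAP1 was lower in both siCEBPG libraries than in either Control library. On the log2 scale the ratio averaged -2.16 ± 0.14 in siCEBPG cells and -0.96 ± 0.0072 in Control cells (SD, n = 2 each), a difference of -1.20 with an exact two-sided permutation p of 0.333 (adjusted p = 0.333 over 5 such ratios), the smallest that 2 libraries against 2 can give.

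Short sequence words in the 3' UTRs of these transcripts are shown because the siRNA target CEBPG and WWTR1, the gene with the deepest fall, share one of them, while 4 of the 7 genes that fell hold neither. An siRNA can lower transcripts other than its target when their 3' UTR pairs with the seed of its guide strand. The sources used here do not give the sequence of the siRNA. GGCTATT was known from earlier results of these data as a word of genes that were lower, so the counts that follow are no independent test. Of 11216 tested genes with an annotated 3' UTR of at least 50 bases, 875 held it there, and 59% of them were called lower, against 30.9% of the 10341 genes without it. Their median log2 fold changes were -0.32 and -0.0032. The word shifted by 1 base, GCTATTA, was in the 3' UTR of 638 genes that lack GGCTATT, of which 48.6% were lower. Of the 10287 genes without GCTATTA, 31.3% were lower. That set still includes genes with GGCTATT, unlike the 638, so these shares come from unlike sets. Genes with and without a word were not matched for 3' UTR length. CEBPG and WWTR1 hold GGCTATT once each, and YAP1 holds GCTATTA at 2 places and CYR61 at 1. The sites are given below with 11 bases on each side, 5′ to 3′ on the transcript, from GENCODE release 29, with the word in capitals.
CEBPG, exon 2, chr19:33379799-33379827, plus strand: gacccattggaGGCTATTttctgggatca
WWTR1, exon 8, chr3:149518039-149518067, minus strand: aactttttaatGGCTATTtcctattattg
YAP1, exon 9, chr11:102230169-102230197, plus strand: ttatttcttttGCTATTAaaactactgtt
YAP1, exon 9, chr11:102231064-102231092, plus strand: ttctagaaagaGCTATTActgtggatagt
CYR61, exon 5, chr1:85583810-85583838, plus strand: cagtgaattaaGCTATTAaaataagataa
Neither word was in the 3' UTR or coding sequence of the transcripts searched for TEAD1, CTGF, ANKRD1 and AMOTL2, which fell as well, or for TEAD3, TEAD4 and LATS2. The longest complete coding transcript of each gene was searched. For WWTR1 it has 5030 bases, while the deposited counts and RPKM imply a length of 8420 bases if the table's totals were the depth. Sequence that was not searched may therefore have been counted. The implied length was also above the searched one for AMOTL2 (5987 against 4521 bases) and TEAD1 (10822 against 8477). It was nearly equal for CTGF (2339 against 2339) and ANKRD1 (1980 against 1979). The part of these words in the fold changes was not tested.

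The TEAD genes differed among themselves. TEAD1, the most abundant of them in Control cells, was at 220 and 199.5 CPM in siCEBPG libraries and at 458 and 435 CPM in Control libraries. All siCEBPG values lay below all Control values, and the gap was many times the spread within a group. TEAD1 had a log2 fold change of -1.09 (edgeR, SE 0.046 and adjusted p = 5.18e-11).

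TEAD4 was at 55.7 CPM in each siCEBPG library, against 58.9 and 60.4 CPM in Control libraries. The groups did not overlap, but the gap was small and the test was not passed (edgeR log2 fold change -0.10 with SE 0.054 and adjusted p = 0.134). TEAD3 had 49.9 and 45.1 CPM in siCEBPG libraries and 41.9 and 47.6 CPM in Control libraries. Its groups overlapped, with a log2 fold change of 0.087 (edgeR, SE 0.073 and adjusted p = 0.335), and the call changed with total counts as scaling (0.19, edgeR adjusted p = 0.0342). TEAD2, the remaining paralog, had a log2 fold change of 0.011 (edgeR, SE 0.076 and adjusted p = 0.915). Without overlap between groups in CPM, 8 of the 10 genes lay below Control and 1 above, against 38.2% and 38% of all genes tested. The 8 include TEAD4, whose separation depended on the scaling. Its deposited RPKM overlapped (25.37 and 25.27 in siCEBPG libraries, 25.03 and 25.66 in Control libraries). With total counts as scaling its log2 fold change was -0.00090.

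Per length, the leading TEAD transcript was TEAD4 in siCEBPG cells and TEAD1 in Control cells. TEAD1 made up 29.3% and 27.9% of the summed TEAD1 to TEAD4 RPKM in siCEBPG libraries, against 46.9% and 44.3% in Control libraries. TEAD4 made up 35.2% and 37.1% in siCEBPG libraries, against 28.8% and 29.3% in Control libraries. The summed TEAD RPKM was 72.0 and 68.2 in siCEBPG libraries, against 87.0 and 87.6 in Control libraries. The TEAD1 to TEAD4 ratio was 0.831 and 0.753 in siCEBPG libraries and 1.63 and 1.51 in Control libraries, a log2 difference of -0.99 (exact permutation p = 0.333). The TEAD3 to TEAD4 ratio was 0.669 and 0.604 in siCEBPG libraries and 0.530 and 0.588 in Control libraries, a log2 difference of 0.19 (exact permutation p = 0.333) that was 0.12 without siCEBPG replicate 1 and 0.11 without Control replicate 1. RPKM depends on the length the authors used, which the deposited values imply in the same way to be 10822 bases for TEAD1, while its longest complete coding transcript in GENCODE has 8477.

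**Figure D2:**
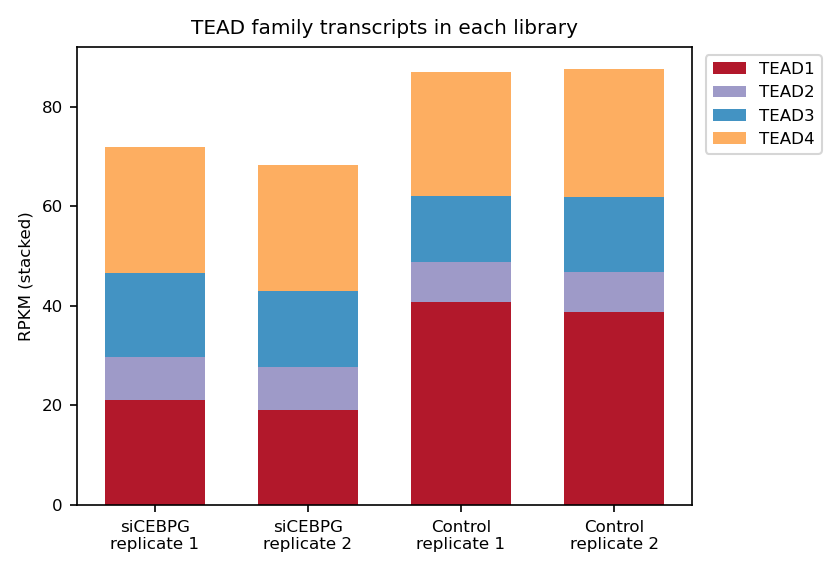
Deposited RPKM of TEAD1 to TEAD4, stacked, in each library, with siCEBPG libraries on the left. The TEAD1 segment is 21.1 and 19.0 RPKM in siCEBPG libraries, against 40.8 and 38.8 RPKM in Control libraries, and the TEAD4 segment is 25.4 and 25.3 RPKM, against 25.03 and 25.7 RPKM.

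LATS2, which encodes a kinase that inactivates YAP and TAZ, was the single member that was higher. Its level was 48.3 and 54.9 CPM in siCEBPG libraries, against 45.4 and 42.1 CPM in Control libraries. The lowest siCEBPG library lay just above the highest Control library. The log2 fold change was 0.24 (edgeR, SE 0.071 and adjusted p = 0.0102), and the call did not hold without siCEBPG replicate 2 (0.14), Control replicate 1 (0.29) or Control replicate 2 (0.18), or without a filter on low counts. In the authors' deposited table LATS2 has a log2 fold change of 0.23 and an adjusted p of 0.0697. LATS1, its paralog, had a log2 fold change of -0.27 (edgeR, SE 0.077 and adjusted p = 0.0074), with 53.6 and 48.4 CPM in siCEBPG libraries and 67.1 and 56.2 CPM in Control libraries. The LATS1 call was lost in 5 of 10 alternatives, among them without siCEBPG replicate 1 (log2 fold change -0.35), siCEBPG replicate 2 (-0.20) or Control replicate 1 (-0.14), and its adjusted p ranged between 0.000179 and 0.28. The LATS2 to LATS1 ratio in RPKM was 1.36 and 1.71 in siCEBPG libraries and 1.02 and 1.13 in Control libraries (exact permutation p = 0.333).

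The 4 target genes other than LATS2 all fell. CYR61, now named CCN1, encodes a secreted integrin-binding protein and was by far the most abundant of the 10 per length. It had 209.9 and 213 CPM in siCEBPG libraries, against 433 and 428 CPM in Control libraries, with libraries of a group nearly equal. The log2 fold change was -1.03 (edgeR, SE 0.036 and adjusted p = 8.43e-12), a 2.04-fold fall.

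AMOTL2 encodes a junctional scaffold of the angiomotin family that binds YAP and activates LATS. It had 119 and 114 CPM in siCEBPG libraries, against 238 and 231 CPM in Control libraries. The gap was wide against the spread of each pair, with a log2 fold change of -1.01 (edgeR, SE 0.043 and adjusted p = 4.94e-11).

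ANKRD1, which encodes an ankyrin repeat protein of the nucleus and sarcomere, was at a low level. Its level was 6.57 and 7.38 CPM in siCEBPG libraries (105 and 118 counts), against 17.3 and 14.8 CPM in Control libraries (260 and 221 counts). The Control pair spread more than the siCEBPG pair, and the groups did not overlap. The log2 fold change was -1.20 (edgeR, SE 0.12 and adjusted p = 9.6e-07).

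CTGF, now named CCN2, is a relative of CYR61 and was the scarcest of the 10 per length. It had 4.38 and 4.69 CPM in siCEBPG libraries (70 and 75 counts), against 6.87 and 7.41 CPM in Control libraries (103 and 111 counts). The log2 fold change was -0.65 (edgeR, SE 0.15 and adjusted p = 0.00178), and without Control replicate 2 the adjusted p was 0.051. The CTGF to CYR61 ratio in RPKM was 0.0219 and 0.0232 in siCEBPG libraries and 0.0166 and 0.0182 in Control libraries, a log2 difference of 0.37 (exact permutation p = 0.333).

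**Figure D3:**
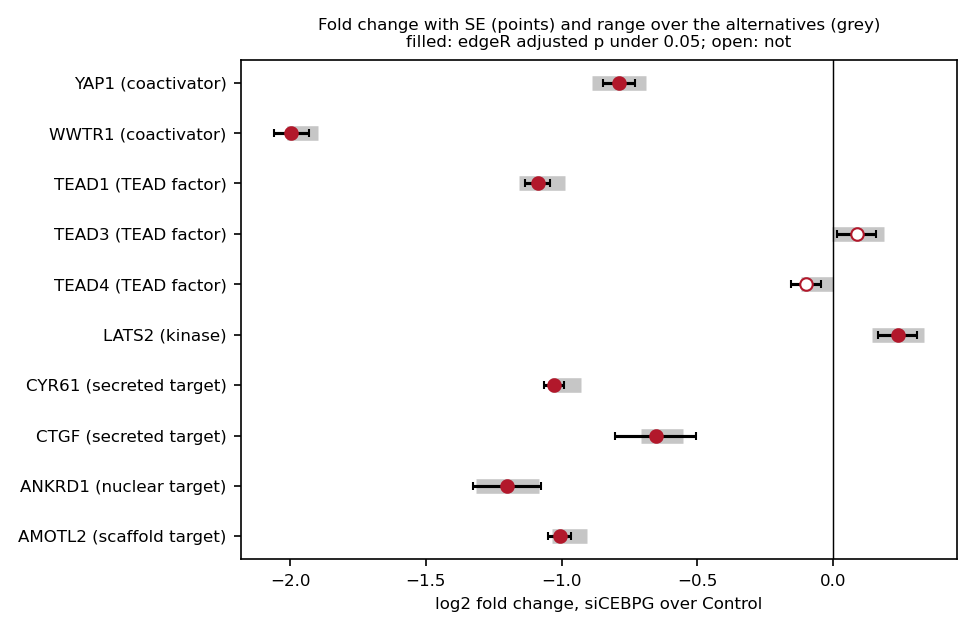
Log2 fold change of siCEBPG over Control for the 10 genes, ordered by role; bars are the SE, grey bands the range over 10 alternative analyses, and filled points have an edgeR adjusted p under 0.05. WWTR1 lies at -2.00, the 4 target genes CYR61, CTGF, ANKRD1 and AMOTL2 between -1.20 and -0.65, and LATS2 at 0.24.

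Per length, CYR61 led in both groups, with 88.9 ± 0.54 RPKM in siCEBPG cells and 169 ± 1.25 RPKM in Control cells (SD, n = 2 each). In siCEBPG cells the order below it was TEAD4 (25.3 RPKM), AMOTL2 (20.2), TEAD1 (20.0), TEAD3 (16.1), YAP1 (10.1), LATS2 (9.29), ANKRD1 (3.65), WWTR1 (2.25) and CTGF (2.01 ± 0.092). In Control cells it was TEAD1 (39.8 RPKM), AMOTL2 (37.9), TEAD4 (25.3), YAP1 (16.4), TEAD3 (14.2), WWTR1 (8.40), ANKRD1 (7.82), LATS2 (7.36) and CTGF (2.94 ± 0.16). Neighbours whose libraries overlapped were AMOTL2 and TEAD1, and YAP1 and LATS2, in siCEBPG cells, and WWTR1 and ANKRD1, and ANKRD1 and LATS2, in Control cells. LATS2 lay above WWTR1 in both siCEBPG libraries and below it in both Control libraries.

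TEAD proteins bind the motif GGAATG, which reads CATTCC on the opposite strand. RefSeq promoter tables (GRCh38.p14) held 7 of the 10 genes, with none for CYR61, TEAD1 and TEAD4. In the 250 bases before each annotated start, the motif was found on either strand for CTGF, ANKRD1, AMOTL2 and YAP1, and not for WWTR1, TEAD3 and LATS2. Of all 35116 such windows, 11.9% held it at least once, 0.94% at least 2 times and 0.0826% at least 3 times. These shares are per window and not per gene, and AMOTL2 and WWTR1 have 2 windows each. CTGF held 3 copies, beginning at -169, -104 and -95 from its start, and ANKRD1 held 2, beginning at -220 and -128. AMOTL2 held 1 at -69 from the second of its 2 starts, and YAP1 held 1 at -162. No copies overlapped, and a match of letters is not a binding site. The CTGF window, 5′ to 3′ at chr6:131951373-131951622 on the minus strand, is shown because it holds the most copies among these genes, with the copies in capitals.
CTGF: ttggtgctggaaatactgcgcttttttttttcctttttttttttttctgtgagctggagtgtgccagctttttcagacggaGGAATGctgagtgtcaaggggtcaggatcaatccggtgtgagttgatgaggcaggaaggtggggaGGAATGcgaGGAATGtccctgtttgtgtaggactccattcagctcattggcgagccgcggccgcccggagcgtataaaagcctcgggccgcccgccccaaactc
The copies of the other genes are shown with 11 bases on each side, the motif in capitals.
ANKRD1, chr10:90921291-90921318, minus strand: tcaccaccaaaGGAATGgccctctcaca
ANKRD1, chr10:90921199-90921226, minus strand: acactgagtctGGAATGaaaattcacct
AMOTL2, chr3:134374500-134374527, minus strand: tgaaactctcaCATTCCtggcatagcag
YAP1, chr11:102110274-102110301, plus strand: gggagtgtgcaGGAATGtagcaacttgc
In GENCODE the ANKRD1 gene begins 189 bases further upstream than in RefSeq, so the copy at -128 lies inside its first transcribed bases there. The AMOTL2 gene begins 1032 bases upstream of the second start in GENCODE, so its copy lies inside the annotated gene. Its first RefSeq start, 62 bases from the GENCODE start, had no copy in its window. The genes with copies had log2 fold changes of -1.20 (ANKRD1), -1.01 (AMOTL2), -0.79 (YAP1) and -0.65 (CTGF). Those searched without finding a copy had -2.00 (WWTR1), 0.087 (TEAD3) and 0.24 (LATS2). The WWTR1 windows do not cover the start of the gene in GENCODE, which lies 33441 and 78689 bases upstream of the RefSeq starts used, so the region before that start was not searched.

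**Figure D4:**
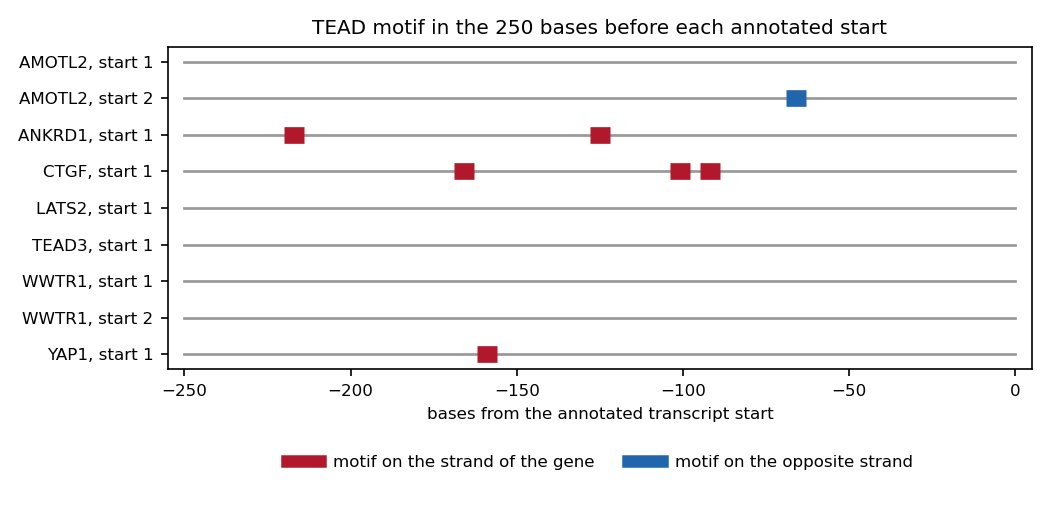
Position of the TEAD motif in the 250 bases before each annotated RefSeq start (horizontal axis, bases from the start) for the 7 genes with a window; red marks the strand of the gene and blue the opposite strand. CTGF holds 3 copies and ANKRD1 holds 2.

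Other known targets of YAP and TAZ were mostly lower, in a signature list that also holds 5 of the 10 genes. This list was chosen with earlier results of these data known, so its counts are descriptions. Of its 15 tested genes that are not among the 10, 11 fell, 1 rose and 3 did not pass the test. Over all genes tested, 28.8% were called lower and 25.5% higher. The median log2 fold change of the 15 genes was -0.56, against 0.0048 for all genes tested. F3, which encodes tissue factor, fell most, with 521 ± 6.49 CPM in siCEBPG cells and 1702 ± 34.4 CPM in Control cells (SD, n = 2 each, edgeR log2 fold change -1.71 with SE 0.035 and adjusted p = 4.03e-14). GADD45A, a growth arrest gene, had a log2 fold change of -1.43, and PTPN14, a phosphatase gene whose product binds YAP, of -1.23. ARHGEF17 was the one that rose, at 10.0 ± 0.14 CPM in siCEBPG cells and 4.37 ± 0.053 CPM in Control cells (2.30-fold higher, edgeR, SE 0.14 on the log2 scale and adjusted p = 3.04e-06). With the 5 members counted in, 15 of 20 genes of the list fell and 2 rose, and 2 of the 20 hold GGCTATT in the 3' UTR, without which 14 of 18 fell.

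Genes of the kinase arm went both ways, as did all genes tested (28.8% lower and 25.5% higher). Of 22 tested genes of the Hippo kinase core and its adaptors, LATS2 among them, 9 fell, 7 rose and 6 did not pass, with a median of -0.094, and with total counts as scaling 5 fell and 7 rose. STK3, which encodes the kinase MST2, had a log2 fold change of -1.34 (edgeR, SE 0.072 and adjusted p = 6.87e-10), with 17.8 ± 0.0050 CPM in siCEBPG cells and 45.1 ± 0.69 CPM in Control cells (SD, n = 2 each). NF2, which encodes the upstream scaffold merlin, fell by 0.86 and the kinase gene STK38L by 0.88, while its relative STK38 rose (0.81). STK3 and NF2 hold GGCTATT in the 3' UTR, and 3 genes of the list do in all. Without these 3 genes, 6 fell and 7 rose.

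Among the 3 TEAD and cofactor genes outside the 10, VGLL4, which encodes a repressor that competes with YAP for TEAD, rose, with 38.0 ± 0.011 CPM in siCEBPG cells and 23.2 ± 1.38 CPM in Control cells (SD, n = 2 each, edgeR log2 fold change 0.72 with SE 0.073 and adjusted p = 8.21e-07). VGLL1 fell at a low level (19 and 16 counts in siCEBPG libraries, 29 and 48 in Control libraries, log2 fold change -1.22). Of 18 tested scaffold, junction and polarity genes, AMOTL2 among them, 7 fell and 4 rose, with a median of -0.096. Over all genes tested, 28.8% were lower and 25.5% higher. Without AMOTL2, 6 of 17 fell and 4 rose, with a median of -0.076. PTPN14 (also in the target signature), the LIM protein gene AJUBA (-0.71) and the polarity gene CRB3 (-0.62) fell, and the scaffold gene DLG5 rose (0.75). Of 16 tested genes of STRIPAK, a phosphatase complex that acts on the MST kinases, 9 fell and 3 rose, with a median of -0.11, read against the same 28.8% and 25.5%. Its largest falls were PDCD10 (-1.06), the kinase gene MST4 (-0.93), STRN (-0.53) and STRN3 (-0.52).

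A further list held SRF, the MRTF coactivator genes MKL1 and MKL2, and targets of this program, which responds to actin. Of its 11 tested genes 5 rose and 0 fell in edgeR, against 25.5% higher and 28.8% lower over all genes tested. At an unadjusted p under 0.05, 0 were lower as well, and DESeq2 called 3 higher and 0 lower. The list holds none of the 10 genes and was chosen with earlier results of these data known. The falls of CYR61, CTGF, ANKRD1 and AMOTL2 therefore do not enter its counts. Its count of falls depends on which targets were listed, and is no independent contrast with the target signature of YAP and TAZ. ACTA2, the smooth muscle actin gene, had the largest change (1.28, SE 0.34, edgeR adjusted p = 0.00537) at 1.47 ± 0.044 CPM in siCEBPG cells and 0.600 ± 0.094 CPM in Control cells (SD, n = 2 each). Of the targets, FHL2 (0.39) and FLNA (0.16, named after its value was seen) also rose, and the other 2 rises were the coactivator genes MKL1 (0.23) and MKL2 (0.18). In the CCN family, 3 genes were tested, and WISP2, outside the 10 and named after its value was seen, had a log2 fold change of -0.17 (edgeR adjusted p = 0.474).

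**Figure D5:**
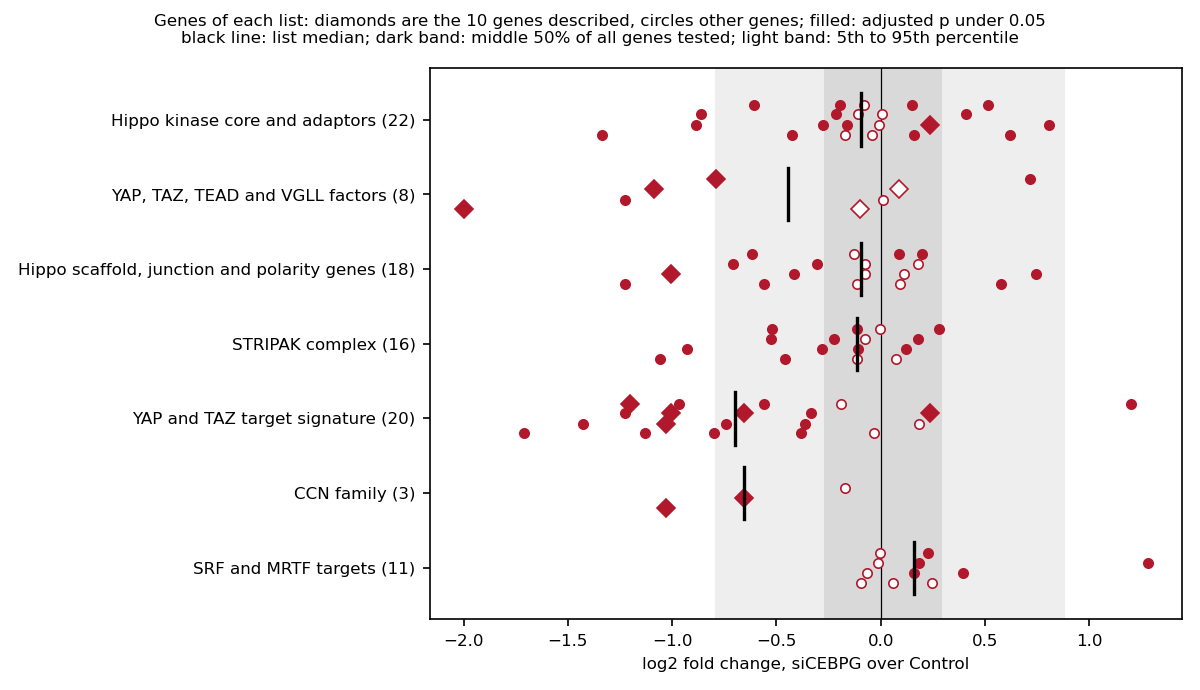
Log2 fold change of siCEBPG over Control for each tested gene of 7 lists; diamonds are the 10 genes, circles the others, filled where the edgeR adjusted p is under 0.05, black lines are list medians and grey bands show all genes tested. The target signature has its median at -0.70 with 5 of the 10 genes in it, and the list named SRF and MRTF targets, which also holds SRF, MKL1 and MKL2, at 0.16.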

How the data were processed

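RNA-seq of 4 KYSE150 libraries was analysed from 1 deposited table. The submitters' processing notes list hg19 as the build, and, as tools, RSEM 1.2.12, HISAT2 2.0.4, Bowtie2 2.2.5 and DESeq; the sources used here give neither their roles, the annotation nor the use of strand. The deposited counts are whole numbers and may be rounded estimates, since RSEM is listed. Per the file headers, the authors also deposited RPKM, a mean normalized signal, a log2 fold change with its SE, a score (the test statistic), and p-values. RPKM was used for levels and for ratios between genes, and is set side by side across libraries as a description; fold changes come from the counts. Samples were grouped by their titles.

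Counts were tested with edgeR 4.0.16 in R 4.3.3 (TMM factors, filterByExpr with a minimum count of 10, quasi-likelihood F test, group only, two-sided, Benjamini-Hochberg over 14207 genes, threshold 0.05), after a test on simulated data. The replicate pairs differed by more than Poisson sampling (chi-square per gene 1.93 in siCEBPG and 1.57 in Control), so none was counted as a copy. Ratios had an exact permutation test. Named beyond the 10 genes were the 4 called genes with the largest change in each list at a mean of at least 1 CPM, and LATS1, TEAD2 and CEBPG. Genes beyond these that were named after their values were seen are marked so. The table holds 27 repeated gene names, and its lowest sum of counts per gene is 10. Members and lists were chosen with earlier results of these data known. Gene positions and 3' UTRs are from GENCODE release 29 (GRCh38), and promoters from RefSeq. YAP1, TEAD1, LATS2 and CTGF also overlap opposite-strand genes. Alternatives were RLE, upper-quartile and total-count scaling, no filter, DESeq2 1.42.0, a replicate block, and each library left out; leaving out genes with GGCTATT was added after seeing the data. A further marker list is not reported here.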

Additional observations from a re-analysis of the deposited data

How the results depend on the processing

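Over 10 alternatives, 6 of the 7 falls among the 10 genes (YAP1, WWTR1, TEAD1, CYR61, ANKRD1 and AMOTL2) kept their direction and call. CTGF ranged over -0.71 to -0.60 with 1 library left out, and its call was lost without Control replicate 2 (adjusted p = 0.051). LATS2 ranged over 0.14 to 0.33 with 1 library left out, and was not called without a filter on low counts (0.22, adjusted p = 0.063). TEAD3 was called with total counts (0.19), and ranged over -0.0046 to 0.18 with 1 library left out, changing sign without Control replicate 1. TEAD2 changed sign without a filter (-0.0025), and ranged over -0.0057 to 0.021 with 1 library left out. With log2(RPKM + 1), the difference of the WWTR1 to YAP1 ratio was -0.89 and that of the CTGF to CYR61 ratio 0.53. The cause of these shifts was not tested.

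Over all genes, DESeq2 called 2350 higher; with 1 library left out, 1737 to 2345 were higher and 2572 to 3049 lower, in fits with fewer samples where the lone library is assumed to vary like the other group. Upper-quartile factors gave 4525 higher and 3396 lower (57.1% higher). Of the 10 genes, total counts called 2 higher and no filter 0, and with 1 library left out 0 to 1 were higher. Total counts called 5 kinase genes lower and 2 TEAD and cofactor genes higher. No filter called 4 kinase genes and 1 target signature gene higher, and DESeq2 called 3 genes of the SRF and MRTF list higher. With 1 library left out, 4 to 5 kinase genes were higher and 5 to 7 lower, 2 to 4 scaffold genes, 0 to 1 STRIPAK genes, 1 to 2 signature genes and 2 to 3 genes of the SRF and MRTF list were higher, and 1 to 2 CCN genes were lower. Without genes holding GGCTATT, chosen after seeing the data, 6 of the 10 genes were lower, since WWTR1 was left out.

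Deviations of same-numbered libraries were hardly correlated (0.049 over 14207 genes). Counting noise can lower such a correlation, so whether same-numbered libraries share a batch cannot be told. With the replicate block, 3811 genes were higher and 4319 lower, against 3617 and 4098 without it. The calls of the 10 genes were unchanged. With 2 libraries a group, the exact test cannot go below 0.333, and genes such as CTGF rest on about 70 to 111 counts a library.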
